A study of Mus musculus with 11 samples.

Results

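The 10 genes described here encode 6 ligands of the epidermal growth factor (EGF) family, *Egf*, *Tgfa*, *Areg*, *Ereg*, *Hbegf* and *Btc*, and the 4 ErbB receptors, *Egfr*, *Erbb2*, *Erbb3* and *Erbb4*. They were chosen by name from the 27179 genes of the count tables. Each of the 10 passed the filter on low counts, which retained 15422 genes. *Egf* passed only, and *Erbb4* mainly, through libraries other than those of MaSC/basal cells. In MaSC/basal cells their means of 0.370 and 0.405 CPM lay under the threshold of 0.5 CPM, with highest libraries of 0.458 and 0.621 CPM. CPM values are a gene's counts scaled to a common library size, with each library's total multiplied by its TMM normalization factor.

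EGF ligands are made as precursors anchored in the cell membrane, are released by metalloproteases of the ADAM family, and bind ErbB receptors on the same or on nearby cells. The bound receptors pair with each other and signal through the ERK and PI3-kinase pathways. EGFR binds each of the 6 ligands, ErbB2 has no known ligand and acts as a partner, ErbB3 binds neuregulins and has little kinase activity of its own, and ErbB4 binds neuregulins and some of the EGF ligands. In the mammary gland, amphiregulin (the product of *Areg*) from hormone-sensing luminal cells is known for its part in the growth of ducts at puberty, and ErbB4 for its part in the lactating gland.

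RNA-seq counts were available for 11 libraries of mouse mammary epithelial cells, with 19958838 to 75795034 reads counted on genes per library (median 38388464). MaSC/basal cells (CD24+CD29hi, enriched in mammary stem cells), LP cells (CD24+CD29loCD61+, enriched in luminal progenitors) and ML cells (CD24+CD29loCD61-, enriched in mature luminal cells) were sorted from the mammary glands of virgin, wild type FVB/N females, with 3 independent samples per population. The labels give these mice as 8 weeks old, and the series design gives 8 to 10 weeks. A library of mammosphere cells was made from MaSC/basal cells of such mice after 1 week in non-adherent culture, in a medium that contained EGF, and a library of Comma Dβ cells (labelled CommaD-βGeo, wild type, Balb/c, mid-pregnancy) came from an established mammary epithelial line. The labels name no allele or agent that distinguishes the sorted groups from each other. MaSC/basal replicate 1 is labelled wild type but was submitted under a name with p53 in it, and it is not clear from its name whether the mammosphere library pools cultures. The labels put the libraries in 3 batches. Batch 1 held replicate 1 of each population and the mammosphere library, batch 2 held MaSC/basal replicates 2 and 3 and replicate 2 of LP and ML, and batch 3 held replicate 3 of LP and ML together with Comma Dβ. By the labels, batches 2 and 3 used a later version of the TruSeq RNA kit than batch 1.

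The populations carried the markers of their labels. The summed level of 5 basal genes (*Krt5*, *Krt14*, *Trp63*, *Acta2*, *Mylk*) was 13230 to 17705 CPM in MaSC/basal cells and 49.9 to 326 CPM in LP and ML cells, with the highest of these in ML replicate 3. The summed level of 4 genes of hormone-sensing luminal cells (*Esr1*, *Pgr*, *Prlr*, *Cited1*) was 3583 to 5924 CPM in ML cells, 597 to 1546 CPM in LP cells and far less in MaSC/basal cells (lowest library 56.3 CPM), and that of 4 luminal progenitor genes (*Kit*, *Elf5*, *Itgb3*, *Aldh1a3*) was 1223 to 1613 CPM in LP cells and 295 to 687 CPM in ML cells. *Itgb3* encodes CD61, on which LP and ML cells were sorted, so that its difference between them follows from the sort. Summed markers of the endothelial, immune and erythroid cells that the sort removed were low, as were those of adipocytes. Endothelial genes (*Pecam1*, *Cdh5*, *Kdr*) reached at most 73.4 CPM in MaSC/basal cells and 4.58 to 30.1 CPM in LP and ML cells, immune genes (*Ptprc*, *Cd68*, *Cd3e*, *Cd79a*) at most 23.9 CPM in any library, mostly *Cd68*, erythroid genes (*Hba-a1*, *Hbb-bs*, *Alas2*) at most 6.69 CPM and adipocyte genes (*Adipoq*, *Plin1*, *Lep*) less than that. The fibroblast genes (*Pdgfra*, *Col1a1*, *Dcn*, *Lum*) summed to 133 to 512 CPM in the sorted libraries and 1041 and 1024 CPM in the mammosphere and Comma Dβ libraries. In bulk RNA, fewer cells of a type and less RNA per cell cannot be told apart.

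The ligands and receptors divided along the basal and luminal lineages. *Tgfa*, *Ereg* and *Egfr* were higher in MaSC/basal cells than in either luminal population, *Areg*, *Btc*, *Egf*, *Erbb2*, *Erbb3* and *Erbb4* were lower, and *Hbegf* had its highest levels in LP cells. Between LP and ML cells, *Areg*, *Btc*, *Erbb2* and *Erbb3* were higher in ML cells and *Hbegf*, *Egfr* and *Erbb4* were higher in LP cells. Each difference was tested in edgeR (quasi-likelihood F test), p-values were adjusted over the 15422 genes by the Benjamini-Hochberg method, and a gene was called at an adjusted p under 0.05.

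Between MaSC/basal and LP cells, all 10 genes were called, 3 with the higher level in MaSC/basal cells and 7 with the higher level in LP cells, beside 57.3% of all genes tested (29.3% and 28%). For MaSC/basal against ML cells, 9 of 10 were called, 3 above and 6 below the ML level, beside 58.5% of all genes (28.9% and 29.7%). For LP against ML cells, 7 of 10 were called, 3 above and 4 below the ML level, beside 31.6% of all genes (14.2% and 17.4%). The libraries of both groups did not overlap for 10, 9 and 7 of the 10 genes in these comparisons, beside 63.9%, 65.5% and 47.8% of all genes. Without ML replicate 1, 4 of the 10 genes were called between LP and ML cells, while the calls over all genes also fell, to 3030 of 15326 from 4869 of 15422. Without scaling factors the last comparison called 1564 genes higher in LP cells and 3795 higher in ML cells, against 2188 and 2681 with TMM, and the members still divided 3 to 4. With so many genes called between basal and luminal cells, the counts of members do not set the family apart, and the results lie in the level and direction of each gene.

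**Figure D1:**
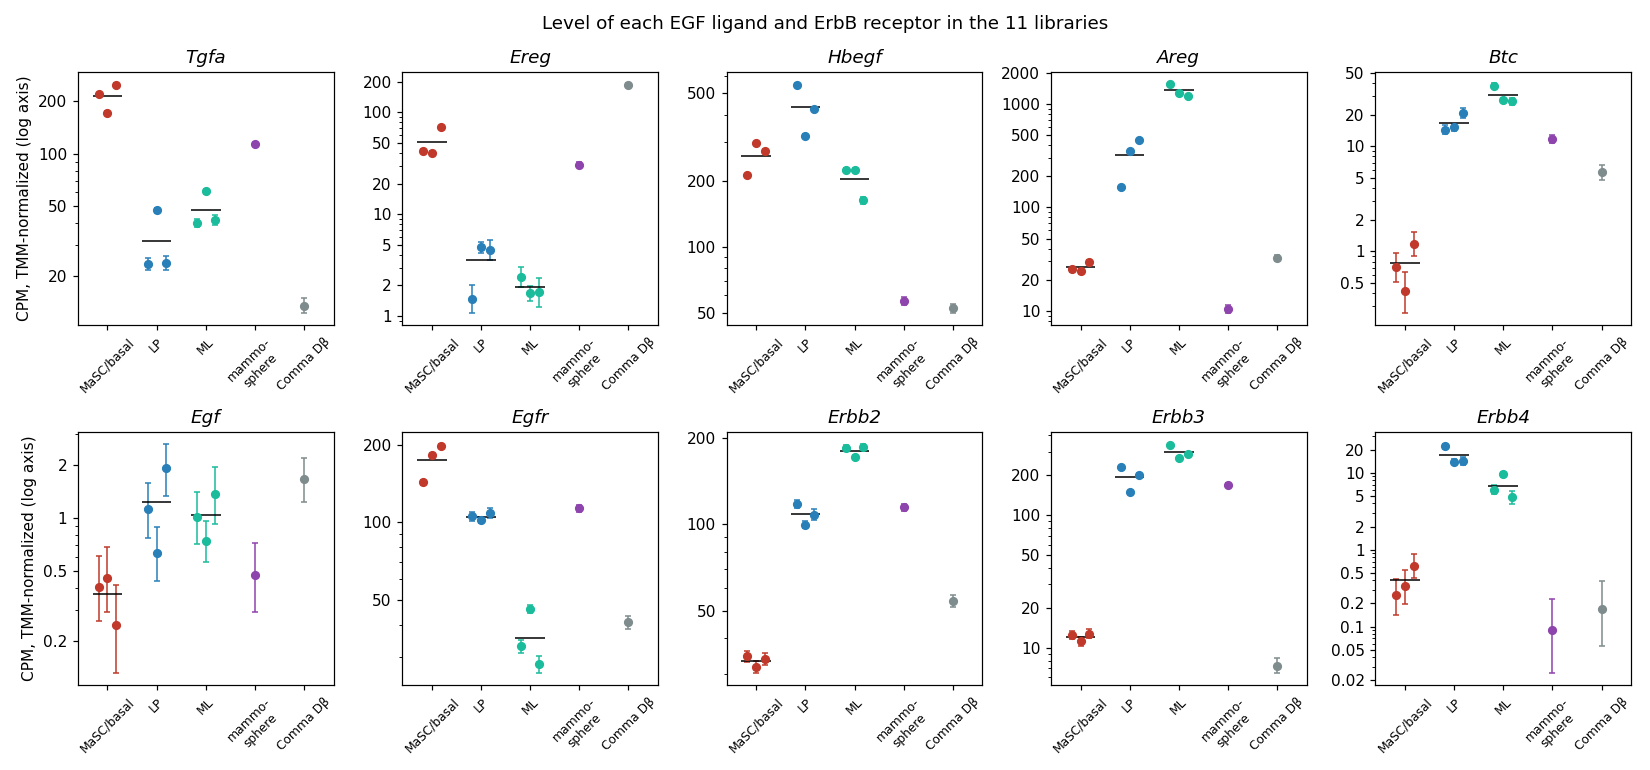
Level of each of the 10 genes (CPM, log axis) in the 5 kinds of sample. Points are libraries, bars are 95% intervals for counting error only, and horizontal lines are means of 3 libraries. *Tgfa*, *Ereg* and *Egfr* lie highest in the MaSC/basal libraries among the sorted cells, and *Areg*, *Btc*, *Erbb2* and *Erbb3* highest in the ML libraries.

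*Tgfa*, which encodes transforming growth factor alpha, was measured at 220, 172 and 249 CPM in the MaSC/basal libraries, 23.3, 47.2 and 23.7 CPM in LP and 39.9, 60.8 and 41.6 CPM in ML. The MaSC/basal libraries lay above every luminal library, whereas the LP and ML libraries overlapped. The mean of 214 ± 38.8 CPM (SD, n = 3) in MaSC/basal cells was 6.77-fold that of LP cells (31.4 ± 13.7 CPM, log2 fold change 2.76, SE 0.31, adjusted p = 4.08e-05) and 4.50-fold that of ML cells (47.5 ± 11.6 CPM, log2 fold change 2.17, SE 0.30, adjusted p = 0.000156). The difference between LP and ML cells did not pass the test (log2 fold change -0.59, SE 0.29, adjusted p = 0.147), although it did without LP replicate 2, the highest LP library (-0.99, adjusted p = 0.0168).

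*Ereg*, which encodes epiregulin, was measured at 42.2, 40.3 and 71.3 CPM in the MaSC/basal libraries, 1.48, 4.77 and 4.48 CPM in LP and 2.43, 1.67 and 1.73 CPM in ML. Its luminal levels rested on 38 to 255 reads per library and overlapped between LP and ML, and the MaSC/basal levels did not come near them. *Ereg* was 14.3-fold higher in MaSC/basal than in LP cells (log2 fold change 3.83, SE 0.41, adjusted p = 3.3e-05) and 26.4-fold higher than in ML cells (log2 fold change 4.72, SE 0.43, adjusted p = 1.01e-05). Between LP and ML cells its difference did not pass (0.89, SE 0.41, adjusted p = 0.127), but did without LP replicate 1, the lowest LP library (1.28, adjusted p = 0.0168).

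*Areg* was the most abundant ligand transcript per kb of exon length in every ML library, with 1571, 1286 and 1204 CPM, against 156, 353 and 447 CPM in LP and 25.2, 24.1 and 29.6 CPM in MaSC/basal. The 3 populations did not overlap, and relative to its mean the LP level varied most, at 319 ± 148 CPM against 1354 ± 192 CPM in ML and 26.3 ± 2.91 CPM in MaSC/basal. *Areg* was 51.5-fold higher in ML than in MaSC/basal cells (log2 fold change of MaSC/basal against ML -5.69, SE 0.39, adjusted p = 1.54e-06), 12.1-fold higher in LP than in MaSC/basal cells (-3.60, SE 0.35, adjusted p = 1.68e-05) and 4.25-fold higher in ML than in LP cells (LP against ML -2.09, SE 0.33, adjusted p = 0.00195). Within LP cells, the library with the lowest *Areg* (156 CPM, replicate 1) also had the lowest sum of hormone-sensing markers (597 CPM), and those with 353 and 447 CPM had sums of 1033 and 1546 CPM. The part of these markers in the *Areg* level of LP cells was not tested.

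*Btc*, which encodes betacellulin, was measured at 0.712, 0.418 and 1.19 CPM in the MaSC/basal libraries (21 to 63 reads), 14.3, 15.1 and 20.7 CPM in LP and 37.5, 27.7 and 26.7 CPM in ML. Again the 3 populations did not overlap. It was 21.5-fold lower in MaSC/basal than in LP cells (log2 fold change -4.42, SE 0.35, adjusted p = 4.64e-06) and 39.4-fold lower than in ML cells (-5.30, SE 0.36, adjusted p = 1.57e-06). The difference between LP and ML cells lay just within the threshold (-0.88, SE 0.30, adjusted p = 0.0476) and is a weak call. It missed the threshold with batch as a replicate block (adjusted p = 0.0588), with RLE size factors (adjusted p = 0.0542) and without any one of LP replicates 1 and 2, ML replicates 1, 2 and 3 and MaSC/basal replicate 1 (adjusted p = 0.0583 to 0.164), with the same direction each time.

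*Hbegf*, which encodes heparin-binding EGF-like growth factor, was abundant in each sorted population, with 211, 296 and 273 CPM in the MaSC/basal, 546, 320 and 425 CPM in the LP and 223, 224 and 162 CPM in the ML libraries. The LP libraries lay above the rest, and the MaSC/basal and ML libraries overlapped. *Hbegf* was 2.12-fold higher in LP than in ML cells (log2 fold change 1.08, SE 0.22, adjusted p = 0.00611) and 1.66-fold higher in LP than in MaSC/basal cells (MaSC/basal against LP -0.73, SE 0.22, adjusted p = 0.0176). The latter call was lost without LP replicate 1 (-0.54, adjusted p = 0.0677) or MaSC/basal replicate 1 (-0.59, adjusted p = 0.0765), both of batch 1, where the difference was -1.37 against -0.17 in batch 2. MaSC/basal and ML cells did not differ past the threshold (0.35, SE 0.22, adjusted p = 0.193).

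*Egf* itself was the lowest of the ligand transcripts per kb of exon length in every library, with 13 to 56 reads. It was measured at 0.407, 0.458 and 0.245 CPM in the MaSC/basal, 1.13, 0.636 and 1.92 CPM in the LP and 1.02, 0.744 and 1.37 CPM in the ML libraries. The MaSC/basal libraries lay below the luminal ones, which overlapped with each other. No MaSC/basal library reached the filter threshold, so that *Egf* was tested only because of its higher level elsewhere, which limits its calls against MaSC/basal cells. The log2 fold changes of MaSC/basal cells were -1.67 (SE 0.46, adjusted p = 0.0109) against LP and -1.46 (SE 0.46, adjusted p = 0.0198) against ML cells, and the latter was not called without MaSC/basal replicate 3 (-1.22, adjusted p = 0.0686) or ML replicate 3 (-1.24, adjusted p = 0.0588). Between LP and ML cells the log2 fold change of *Egf* was 0.22 (SE 0.45, adjusted p = 0.742), whose sign turned without ML replicate 2 or LP replicate 3. Of the exon bases that GENCODE annotates for *Egf*, 1107 of 11275 are shared with 2 genes of the opposite strand. The deposited gene length is 4757 bases, so that the shared part of the counted bases is not known. The strand setting of the counting is not given in the sources used here.

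**Figure D2:**
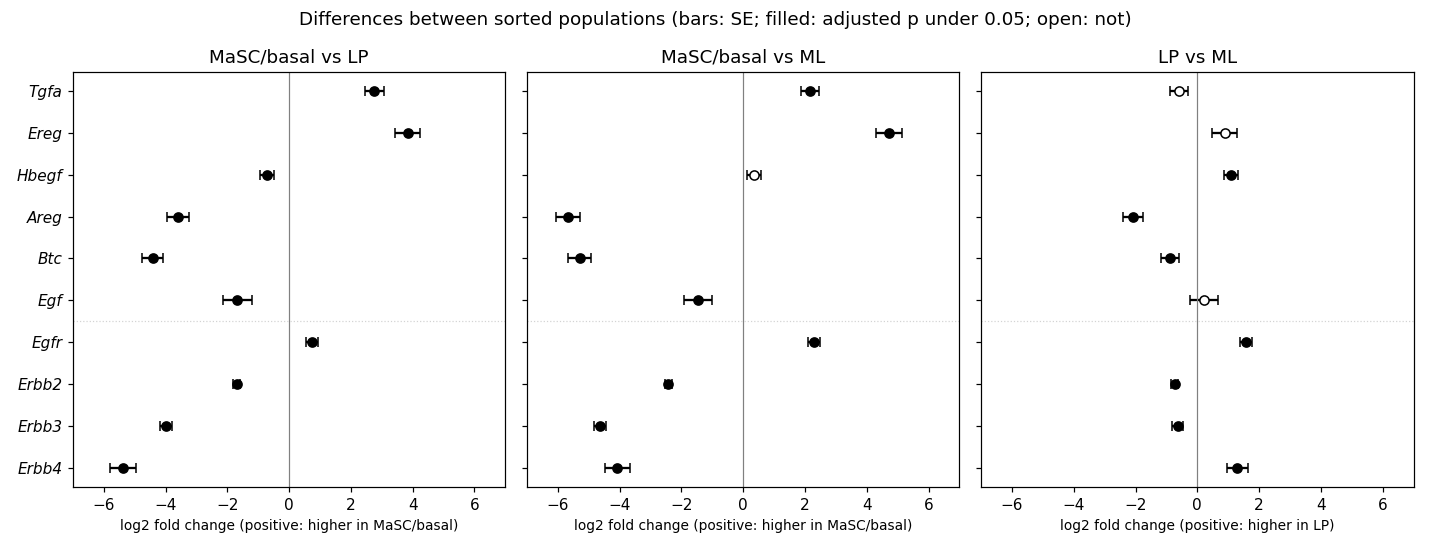
Log2 fold changes of the 10 genes in the 3 comparisons of sorted cells (edgeR, 3 libraries per population). Points are estimates, bars are SE, and filled points have an adjusted p under 0.05. Receptors stand under the dotted line, and all except *Egfr* lie to the left in both comparisons with MaSC/basal cells.

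The genes of 3 members and of *Epgn* lie beside each other on chromosome 5 and did not share 1 pattern. *Epgn* (epigen, chr5:91027517-91035212), *Ereg* (chr5:91074617-91093649) and *Areg* (chr5:91139599-91148432) lie on the plus strand and *Btc* (chr5:91357261-91402994) on the minus strand of GRCm38, within 375.478 kb that hold 7 annotated genes, 4 of them protein coding. Of these neighbours *Ereg* was highest in MaSC/basal cells and *Areg* and *Btc* were highest in ML cells. *Epgn*, with 17.8 ± 2.09 CPM in MaSC/basal cells, about as much in LP cells (lowest 9.10, highest 29.1 CPM) and 42.3 ± 13.4 CPM in ML cells, was also higher in ML cells (MaSC/basal against ML -1.25, SE 0.37, adjusted p = 0.015). In GENCODE's annotation *Ereg* shares 141 of 4128 exon bases with the antisense gene *Gm19610*, and no other annotated gene overlaps the exons of *Areg* or *Btc*.

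**Figure D3:**
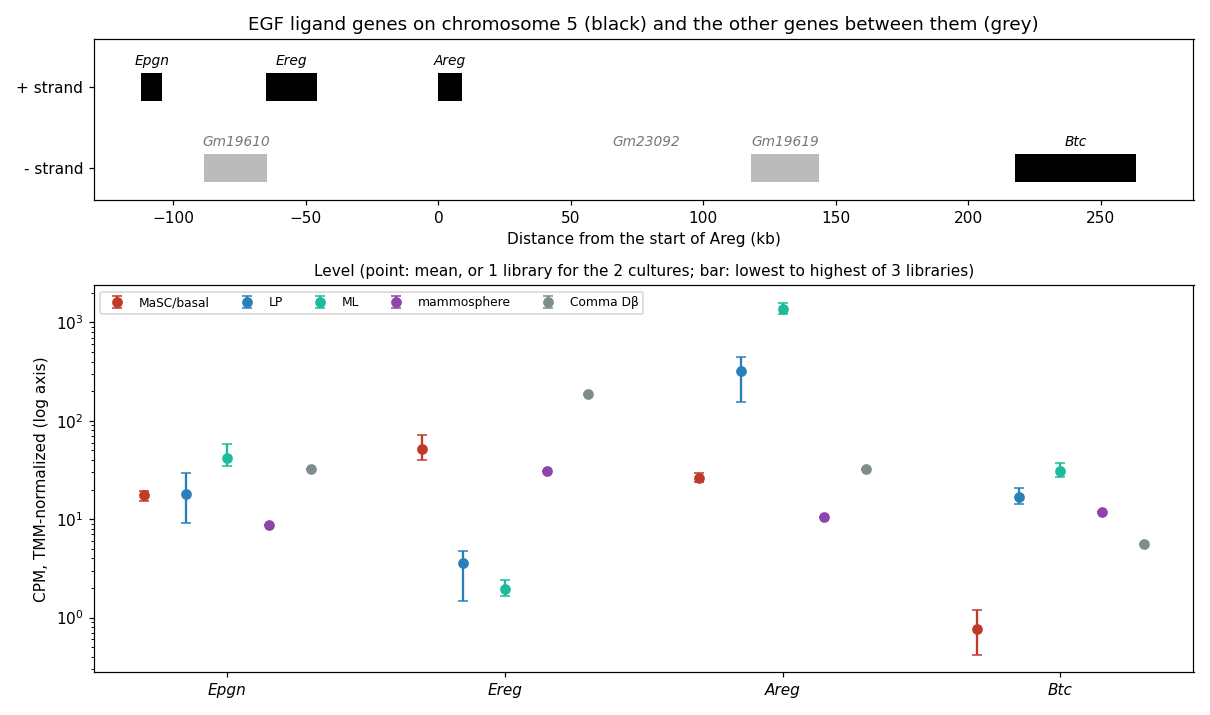
Top, the 4 ligand genes (black) and the 3 other annotated genes (grey) on chromosome 5, by distance from the start of *Areg* (kb) and by strand. Bottom, their levels (CPM, log axis), as means of 3 libraries with bars from the lowest to the highest, or 1 library for the cultured cells. *Ereg* falls from the MaSC/basal to the luminal cells while *Areg* and *Btc* do the opposite.

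The stretches just before the starts of *Areg*, *Btc* and *Egfr* are shown because the first pair of genes, both highest in ML cells, differs from the third, highest in MaSC/basal cells, in the direction of its levels. A RefSeq start window was given for 7 of the 10 genes. The lines below hold the 250 bases before the start in RefSeq's annotation of GRCm38.p6, 5′ to 3′ on the strand of the gene, at chr5:91139349-91139598 (plus strand) for *Areg*, chr5:91402995-91403244 (minus strand) for *Btc* and chr11:16751953-16752202 (plus strand) for *Egfr*, each of them free of annotated exons. Capitals mark matches, on either strand, to a TATA box (TATAAA), a cAMP response element (TGACGTCA), an AP-1 site (TGANTCA), a GC box (GGGCGG) or a CCAAT box (CCAAT).
Areg: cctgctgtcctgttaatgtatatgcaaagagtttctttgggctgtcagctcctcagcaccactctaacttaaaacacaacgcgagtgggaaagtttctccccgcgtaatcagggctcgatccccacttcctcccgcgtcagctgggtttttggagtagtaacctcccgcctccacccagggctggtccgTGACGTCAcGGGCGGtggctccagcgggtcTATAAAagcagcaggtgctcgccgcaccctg
Btc: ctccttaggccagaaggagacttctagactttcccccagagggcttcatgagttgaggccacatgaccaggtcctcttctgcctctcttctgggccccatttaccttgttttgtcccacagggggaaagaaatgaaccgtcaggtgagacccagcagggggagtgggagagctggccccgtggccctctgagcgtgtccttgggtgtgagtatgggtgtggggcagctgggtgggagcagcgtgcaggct
Egfr: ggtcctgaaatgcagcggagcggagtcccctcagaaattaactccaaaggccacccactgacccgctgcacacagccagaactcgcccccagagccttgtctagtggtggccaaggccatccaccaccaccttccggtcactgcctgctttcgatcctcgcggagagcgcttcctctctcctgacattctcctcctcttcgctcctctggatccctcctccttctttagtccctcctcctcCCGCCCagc
Counted back from the base before the start as -1, the *Areg* window held a TATA box at -31 to -26, a cAMP response element at -61 to -54 and a GC box at -52 to -47, with no overlap between them. The *Egfr* window held 1 GC box at -9 to -4, on the minus strand of the gene, and the *Btc* window held none of the 5 motifs. Of 32851 start windows of this length, 12.4% held the TATA box, 1.55% the cAMP response element, 6.75% the AP-1 site, 32.7% the GC box and 33.8% the CCAAT box. These are matches of letters and not sites shown to be bound, and no peak or methylation data bear on them here.

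Of the receptors, *Egfr* (chromosome 11, 16752203 to 16913907) was the one highest in MaSC/basal cells, with 143, 183 and 199 CPM, against 105, 102 and 109 CPM in LP and 32.9, 45.9 and 28.0 CPM in ML. The 3 populations formed steps that did not overlap. *Egfr* was 4.91-fold higher in MaSC/basal than in ML cells (log2 fold change 2.30, SE 0.20, adjusted p = 5.88e-06), 2.95-fold higher in LP than in ML cells (1.56, SE 0.19, adjusted p = 0.000893) and 1.66-fold higher in MaSC/basal than in LP cells (0.73, SE 0.19, adjusted p = 0.00747). Among ML libraries, replicate 2 had the highest *Egfr* and also the highest sum of luminal progenitor markers (687 CPM, against 378 and 295 CPM), and their part in the value was not tested.

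*Erbb2*, the receptor without a known ligand, was measured at 34.7, 31.8 and 34.0 CPM in the MaSC/basal, 118, 99.6 and 108 CPM in the LP and 185, 171 and 185 CPM in the ML libraries. The replicates lay close together, so that each population stood clear of the next. *Erbb2* was 3.24-fold lower in MaSC/basal than in LP cells (log2 fold change -1.69, SE 0.11, adjusted p = 1.44e-06), 5.38-fold lower than in ML cells (-2.43, SE 0.12, adjusted p = 2.34e-07) and 1.66-fold lower in LP than in ML cells (-0.73, SE 0.11, adjusted p = 0.00161).

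*Erbb3*, the neuregulin receptor with little kinase activity, followed the same order with a wider step between basal and luminal cells, at 12.4, 11.1 and 12.7 CPM in the MaSC/basal, 231, 148 and 201 CPM in the LP and 340, 270 and 291 CPM in the ML libraries. It was 16.0-fold lower in MaSC/basal than in LP cells (SE 0.19 on the log2 scale, adjusted p = 2.81e-07) and 24.8-fold lower than in ML cells (-4.63, SE 0.20, adjusted p = 1.28e-07). The step from LP to ML cells was small (-0.63, SE 0.17, adjusted p = 0.0195), and it was not called without ML replicate 1 (adjusted p = 0.0756) or LP replicate 2 (adjusted p = 0.065).

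*Erbb4*, the receptor of the lactating gland, was the least abundant receptor transcript per kb in every library, at 0.254, 0.339 and 0.621 CPM in the basal population (15 to 33 reads), 22.2, 13.9 and 14.5 CPM in the LP libraries and 6.02, 9.61 and 4.78 CPM in the ML libraries. In contrast with *Erbb2* and *Erbb3*, its highest levels were in LP cells. *Erbb4* was 41.5-fold lower in MaSC/basal than in LP cells (log2 fold change -5.38, SE 0.43, adjusted p = 4.5e-06) and 16.9-fold lower than in ML cells (-4.08, SE 0.41, adjusted p = 1.77e-05). Its log2 fold change of LP against ML cells was 1.30 (SE 0.35, adjusted p = 0.0195), a call that was lost without LP replicate 1 (adjusted p = 0.0682), ML replicate 1 (adjusted p = 0.0717) or ML replicate 3 (adjusted p = 0.0616). ML replicate 2, whose luminal progenitor markers were the highest of the ML libraries, also had the highest *Erbb4* of them, and the part of these markers in the value was not tested.

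Levels of different genes were compared per kb of exon length (RPKM, the CPM divided by the deposited gene length). On this scale *Egfr* made up 73.2 ± 3.86% of the summed level of the 4 receptors in MaSC/basal cells, 18.4 ± 2.46% in LP cells and 4.74 ± 1.48% in ML cells (SD, n = 3 libraries each). *Erbb3* made up 8.22 ± 1.18%, 53.0 ± 3.90% and 63.2 ± 2.73%, and *Erbb2* 18.3 ± 2.75%, 24.2 ± 1.76% and 30.7 ± 1.72%. The leading receptor transcript was therefore *Egfr* in every MaSC/basal library and *Erbb3* in every LP and ML library. *Erbb4* made up at most 5.09% in any library. The summed receptor level was 32.3 to 41.0 RPKM in MaSC/basal, 75.9 to 103 RPKM in LP and 111 to 128 RPKM in ML cells.

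Among the ligands, per kb, *Hbegf* led in MaSC/basal cells with 56.2 ± 6.65% of the summed level, followed by *Tgfa* with 26.1 ± 4.78%, *Areg* with 11.3 ± 0.953% and *Ereg* with 6.30 ± 1.53%. *Areg* made up 91.2 ± 1.07% in ML cells. LP cells were less uniform, with *Areg* at 35.1% in replicate 1, where *Hbegf* led with 62.0%, and leading at 65.8% in each of replicates 2 and 3. *Btc* made up at most 1.34% in the sorted libraries and *Egf* at most 0.0714%. The summed ligand level was 172 to 216 RPKM in MaSC/basal, 371 to 566 RPKM in LP and 1093 to 1427 RPKM in ML cells. These shares describe transcripts, and the amount of released ligand was not measured.

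**Figure D4:**
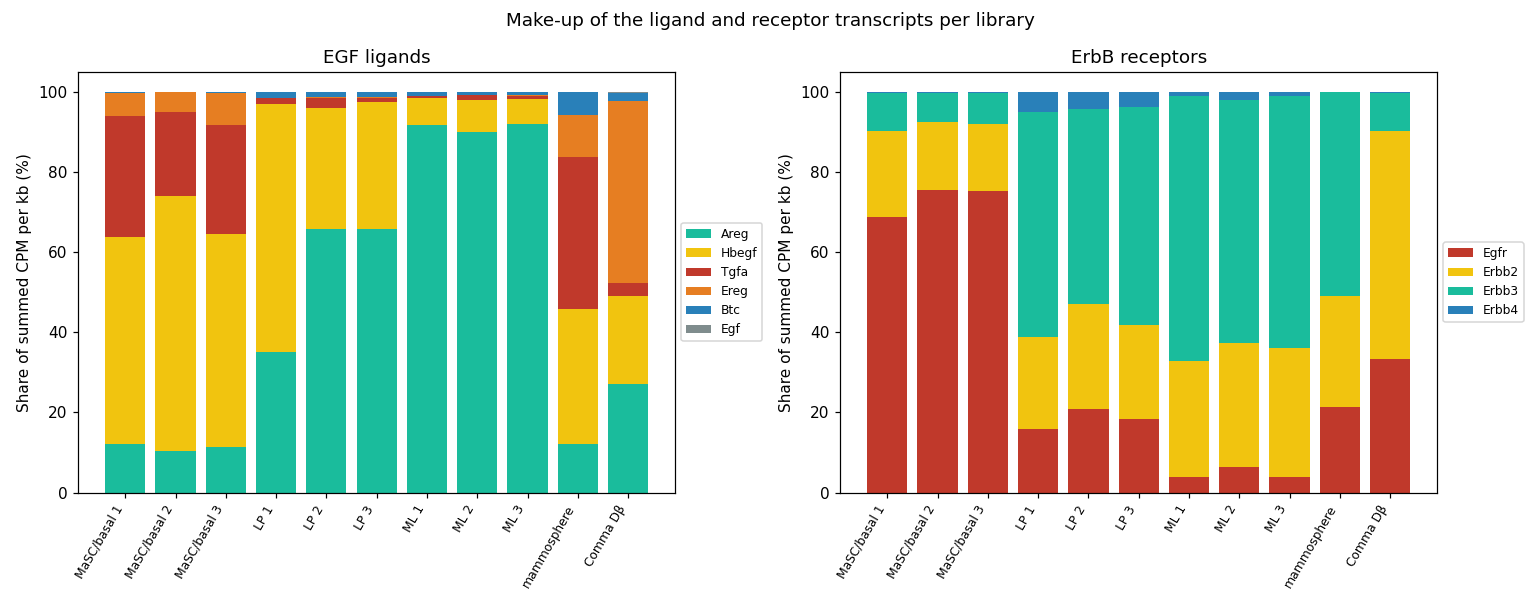
Share of each gene in the summed level (CPM per kb of exon length, in %) of the 6 ligands (left) and the 4 receptors (right), with 1 bar per library. *Egfr* has the largest share of the receptor bar in each MaSC/basal library and *Erbb3* in each LP and ML library (from 48.6% in LP replicate 2), and *Areg* fills over 90.0% of the ligand bar in each ML library.

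The batches were compared next. MaSC/basal and LP cells could be compared within 2 batches, and the difference in log2 CPM had the same sign as the fitted value in both for all 10 genes. For MaSC/basal and ML cells this held for 9 genes, the exception being *Hbegf* (-0.08 in batch 1 and 0.34 in batch 2). LP and ML cells were compared within 3 batches, and 8 genes kept the sign in each. The exceptions were *Egf* and *Ereg*, the latter with -0.70 in batch 1 and 1.49 and 1.35 in batches 2 and 3. The difference in *Areg* between LP and ML cells was -3.33, -1.87 and -1.43 in batches 1 to 3.

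The other ErbB ligands, *Epgn* and the neuregulins *Nrg1* to *Nrg4*, also differed between lineages. Of these, the neuregulins bind ErbB3, ErbB4 or both. In the comparisons of MaSC/basal with LP, MaSC/basal with ML and LP with ML cells, 57.3%, 58.5% and 31.6% of all genes were called. *Nrg3* was not above 0.135 CPM in any library and was not tested. Of the other 4, 2 were higher and none lower in MaSC/basal than in LP cells (median log2 fold change 1.84, against -0.01 over all genes), and 2 were higher and 2 lower in MaSC/basal than in ML cells (median 2.33, against -0.01), with 1 lower without MaSC/basal replicate 2 or ML replicate 3. *Nrg1* was 65.8, 37.0 and 77.9 CPM in MaSC/basal libraries and at most 5.54 CPM in LP and ML libraries, with log2 fold changes of 4.07 (SE 0.48, adjusted p = 5.76e-05) against LP and 5.91 (SE 0.53, adjusted p = 8.72e-06) against ML cells. *Nrg2* had log2 fold changes of 3.69 (SE 0.36, adjusted p = 1.69e-05) and 5.99 (SE 0.42, adjusted p = 1.76e-06). *Nrg4* went the other way, with -2.44 (SE 0.50, adjusted p = 0.00201) against ML cells. So MaSC/basal cells held the highest *Nrg1* and *Nrg2* and the lowest *Erbb3* and *Erbb4* levels of the sorted cells. Between LP and ML cells, 2 of these 4 ligands were higher and 2 lower (median 0.30, against -0.01), and the 2 that were lower, *Epgn* and *Nrg4*, were not called without LP replicate 1, LP replicate 2 or ML replicate 3. Of these lower genes 1 was lost without MaSC/basal replicate 1 or ML replicate 1, and 1 of the 2 higher genes without LP replicate 2, ML replicate 1 or ML replicate 3.

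Of 9 genes for ligand release (7 ADAM proteases and *Rhbdf1* and *Rhbdf2*, whose products, the iRhoms, are needed for ADAM17 activity), 2 were higher and 3 lower in MaSC/basal than in LP cells (median log2 fold change -0.22), 2 higher and 5 lower than in ML cells (median -0.60), and 2 higher and 3 lower in LP than in ML cells (median -0.21), against a median of -0.01 over all genes in each comparison. Beside these counts, 57.3%, 58.5% and 31.6% of all genes were called in the 3 comparisons. The 2 release genes higher in LP than in ML cells became 1 without ML replicate 1 or ML replicate 3. *Adam17*, the main sheddase of *Tgfa* and *Areg* products, lay at no more than 86.7 CPM in the sorted libraries and passed no test (adjusted p = 0.649, 0.069 and 0.209 in the 3 comparisons). *Adam10*, the sheddase of EGF and betacellulin, was lower in MaSC/basal than in ML cells (log2 fold change -2.36, SE 0.22, adjusted p = 8.93e-06), and *Rhbdf2* was lower in MaSC/basal than in LP cells (-2.33, SE 0.22, adjusted p = 1.21e-05). *Adam12* and *Adam19* were higher in MaSC/basal cells, by log2 fold changes of 3.00 and 2.81 against LP cells (adjusted p = 0.00338 and 0.00115) and, for *Adam19*, 3.79 against ML cells (adjusted p = 0.000229).

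Of 10 genes that restrain or turn over the receptors, 3 were higher and 4 lower in MaSC/basal than in LP cells (median -0.06), 5 higher and 3 lower than in ML cells (median 0.41), and 3 higher and 1 lower in LP than in ML cells (median 0.07). Without MaSC/basal replicate 1, or without scaling factors, 2 rather than 4 were lower in the first of these, and the 1 lower in LP than in ML cells was not called without ML replicate 1 or LP replicate 2. *Errfi1*, whose product Mig-6 inhibits EGFR, was 1.32 higher on the log2 scale in LP than in ML cells (SE 0.20, adjusted p = 0.0015). *Cblc*, a ubiquitin ligase of the Cbl family, was lower in MaSC/basal than in LP (-2.02) and ML cells (-2.51), while *Lrig3* was higher (1.67 and 3.11; largest adjusted p of the 4 values = 0.00578). Of 12 adaptors and proximal signalling genes, 3 were higher and 5 lower in MaSC/basal than in LP cells (median -0.23), 4 higher and 3 lower than in ML cells (median 0.18), and 5 higher and 2 lower in LP than in ML cells (median 0.23). With batch as a replicate block these counts were 2 and 6, 3 and 4, and 5 and 2. The 4 genes higher than in ML cells became 2 without any one of MaSC/basal replicates 2 and 3 and ML replicates 1 and 3, and the 5 higher in LP became 3 without LP replicate 1, LP replicate 3 or ML replicate 1 and without scaling factors. The 2 lower in LP became 1 without ML replicate 1 or LP replicate 2. Beside the counts of both lists, 57.3%, 58.5% and 31.6% of all genes were called in the 3 comparisons. *Grb7*, an adaptor that binds ErbB2 and ErbB3, was lower in MaSC/basal cells by the log2 fold changes -3.01 against LP and -3.68 against ML cells (SE 0.19 each, largest adjusted p = 9.27e-07), as was *Gab2* (-4.30 and -3.34), and *Plcg1* was higher (2.31 against ML, SE 0.11, adjusted p = 2.54e-07).

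Of 15 genes known as transcriptional targets of the ERK pathway, 5 were higher and 4 lower in MaSC/basal than in LP cells (median -0.16, against -0.01 over all genes; 5 and 6 with batch as a replicate block), 8 higher and 1 lower in MaSC/basal than in ML cells (median 1.05, against -0.01), and 8 higher and 1 lower in LP than in ML cells (median 0.94, against -0.01; 8 and 2 with the block). Of all genes, 29.3% were called higher and 28% lower in the first comparison, 28.9% and 29.7% in the second and 14.2% and 17.4% in the third. The 8 targets higher in LP than in ML cells became 5 without LP replicate 1, ML replicate 1 or ML replicate 3, and 6 without scaling factors. The 1 lower became 2 without ML replicate 2. *Etv4* (3.76 and 2.32) and *Etv5* (2.28 and 3.17), which encode ETS factors, and *Spry1* (2.97 and 2.13), which encodes a feedback inhibitor, were higher in MaSC/basal than in LP and ML cells (largest adjusted p = 0.000341). *Dusp5*, an ERK phosphatase, had log2 fold changes of 2.18 (SE 0.31, adjusted p = 0.00128) and *Spry4* of 1.49 (SE 0.29, adjusted p = 0.00524) in LP against ML cells, whereas *Etv4* was lower in LP cells (-1.44, SE 0.34, adjusted p = 0.0113). Signalling itself was not measured.

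The cultured cells were compared with the mean of the MaSC/basal libraries, as the mammosphere cells were grown from sorted cells of this type. Each culture is 1 library, so that the differences have no replicate check and no test, and the effects of the medium and of the time in culture cannot be told apart. For Comma Dβ cells, neither can those of the strain and of the batch, which held no MaSC/basal library. The mammosphere library shared batch 1 with MaSC/basal replicate 1. In the mammosphere library 6 of the 10 genes differed by more than 2-fold, 3 higher and 3 lower, beside 39.7% of all genes (19.7% higher and 20% lower). In the Comma Dβ library 6 did, 3 higher and 3 lower, beside 41.7% (16.9% and 24.8%). Without scaling factors the median of all genes moved to 0.22 in the mammosphere and 0.31 in the Comma Dβ comparison, and 3749 genes were higher and 2527 lower in the former and 3807 and 3274 in the latter (3035 and 3083, and 2603 and 3823, with TMM). The counts of members were again 3 and 3 in both.

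In the mammosphere library *Erbb3*, *Erbb2* and *Btc* were higher than in sorted MaSC/basal cells and *Hbegf*, *Erbb4* and *Areg* lower. *Erbb3* was measured at 170 CPM, within the range of the LP libraries and 3.81 above the MaSC/basal mean on the log2 scale, and *Erbb2* at 115 CPM, also within the LP range, was 1.78 above. *Btc*, at 11.7 CPM, was 3.96 above, a little under the LP libraries. Within batch 1, MaSC/basal replicate 1 had 12.4 CPM of *Erbb3*, 34.7 CPM of *Erbb2* and 0.712 CPM of *Btc*. By contrast *Erbb4* was covered by 4 reads (0.0899 CPM, 95% interval 0.0245 to 0.230 CPM for counting error), *Areg* fell by 1.32 to 10.4 CPM and *Hbegf* by 2.18 to 56.6 CPM. *Tgfa* (114 CPM), *Ereg* (30.6 CPM), *Egfr* (113 CPM) and *Egf* (0.472 CPM) differed from the MaSC/basal mean by less than 2-fold, with log2 differences of -0.88, -0.69, -0.61 and 0.36. Per kb, *Erbb3* made up 51.0% of the receptor level, and *Tgfa* (37.9%) and *Hbegf* (33.6%) most of the ligand level.

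Other markers of the mammosphere library moved as well. The basal sum was 3307 CPM and the luminal sum (*Krt8*, *Krt18*, *Krt19*, *Cdh1*) 2440 CPM, against 13230 to 17705 CPM and 818 to 998 CPM in MaSC/basal cells. The luminal progenitor sum was 422 CPM (89.4 to 96.5 CPM in MaSC/basal cells), and all 4 of these genes were above every MaSC/basal library. The hormone-sensing sum was 105 CPM, of which *Prlr* made 94.4 CPM, while *Esr1* and *Pgr*, at 2.74 and 7.03 CPM, were below every MaSC/basal library. Skeletal muscle genes summed to 38.0 CPM, mostly *Acta1*, against at most 6.06 CPM in any other library. The part of any other cell type in the receptor levels was not tested.

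In the Comma Dβ library, *Ereg* was the leading ligand transcript, at 188 CPM and 45.4% of the ligand level per kb, and lay 1.93 above the MaSC/basal mean on the log2 scale. *Btc* (5.64 CPM) and *Egf* (1.67 CPM) were 2.91 and 2.08 above. *Tgfa* fell by 3.97 to 13.5 CPM, below every other library, *Hbegf* by 2.30 to 52.3 CPM and *Egfr* by 2.08 to 40.8 CPM. *Areg* (32.6 CPM, log2 difference 0.32), *Erbb2* (54.0 CPM, 0.69) and *Erbb3* (7.34 CPM, -0.71) stayed within 2-fold. *Erbb4* (5 reads, 0.170 CPM against a MaSC/basal mean of 0.405 CPM) lay at the edge, with -0.98. It passed 2-fold with a prior count of 0.5 (-1.10) and without MaSC/basal replicate 1 (-1.23) or 2 (-1.05). *Erbb2* made up 56.9% and *Egfr* 33.3% of the receptor level per kb, and the summed receptor level of 19.0 RPKM was below that of every other library. The basal marker sum of this line was 1515 CPM, below the MaSC/basal and above the LP and ML libraries, and its luminal sum of 123 CPM was below that of every other library.

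**Figure D5:**
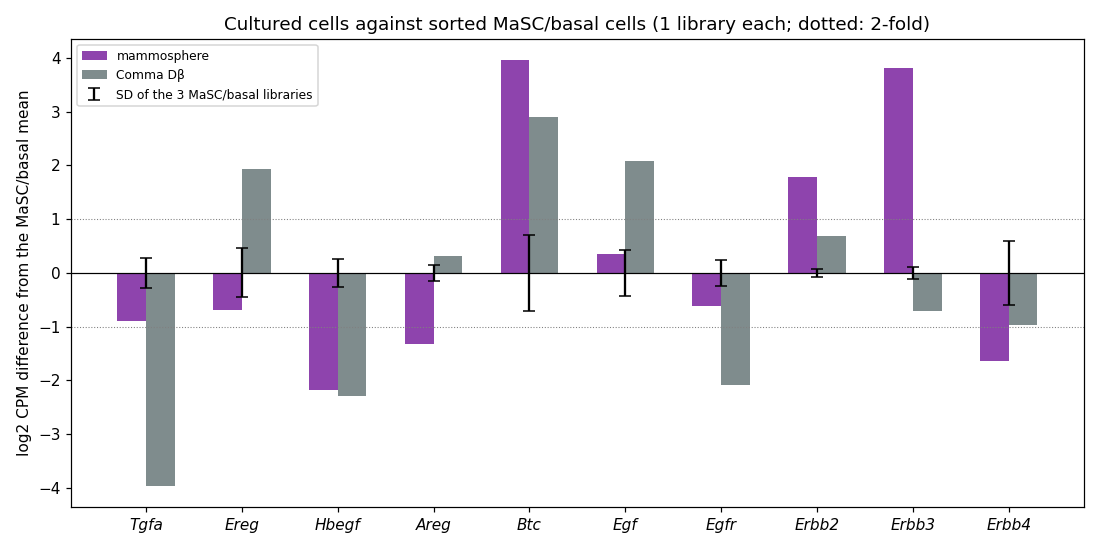
Difference in log2 CPM between each cultured library and the mean of the 3 MaSC/basal libraries for the 10 genes, with 1 library per bar. Black bars show the SD of the MaSC/basal libraries and dotted lines mark 2-fold. *Erbb3* and *Btc* stand near 4 in the mammosphere library, and *Tgfa* near -4 in the Comma Dβ library.

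Both cultures shared lower *Hbegf* and higher *Btc*, each past 2-fold, than sorted MaSC/basal cells, and they are compared with the same 3 MaSC/basal libraries. *Tgfa*, *Egfr* and *Erbb4* were also lower and *Egf* and *Erbb2* higher in both cultures, but not past 2-fold in both. Among the 15 ERK targets, 1 was more than 2-fold higher and 7 lower in the mammosphere library (median -0.97, against -0.01 over all genes), and 1 higher and 11 lower in the Comma Dβ library (median -1.35, against 0.02). Over all genes, 19.7% were more than 2-fold higher and 20% lower in the mammosphere library, and 16.9% and 24.8% in the Comma Dβ library. The inhibitor gene *Errfi1* had differences of -2.60 and -3.89 in log2 CPM, but its list as a whole did not fall. Of the 10 restraint and turnover genes, 2 were more than 2-fold higher and 1 lower in the mammosphere library (median 0.04). The 2 higher were *Cblc* (1.67) and, at the edge, *Cblb* (1.02). In the Comma Dβ library 0 were higher and 2 lower (median -0.07), *Errfi1* and *Cblc* (-1.78). Of the release genes 4 of 9 were more than 2-fold higher in the mammosphere library, *Adam8* (3.40), *Adam12* (2.23), *Adam19* (1.33) and *Adam17* (153 CPM), and 1 in the Comma Dβ library, *Adam19* (2.00). The latter count was 3 without scaling factors and 2 without MaSC/basal replicate 2 or 3. *Nrg1* was lower in both, at 4.97 and 27.4 CPM.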

How the data were processed

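Total RNA of 11 libraries was sequenced as single-end reads. The authors aligned them to the mouse genome (mm10) using Rsubread and summarized them by Entrez gene using featureCounts. The deposited values are raw counts, neither normalized nor filtered, beside an exon length for each gene. Whether strand was used in counting, and how reads matching more than 1 gene were treated, is not given in the sources used here. Samples were grouped by the labels, and replicates within a group were numbered in accession order. The members and gene lists were chosen with earlier results of these data known.

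The tables hold 27179 genes. With edgeR 4.0.16 (R 4.3.3), the 15422 genes over 0.5 CPM in 3 or more libraries entered TMM normalization and a robust quasi-likelihood fit over the 11 libraries, in which the 5 sample types each have their own mean and share 1 estimate of the spread. SE is the size of the log2 fold change divided by the square root of the F statistic. CPM used the total of all genes times the TMM factor. Log2 CPM, with a prior count of 2, was used for the cultured libraries, for within-batch differences and for correlations. A count of 3 reads corresponds to 0.0399 to 0.160 CPM, and intervals (95%, exact Poisson) cover counting error only. The scripts were tested on simulated counts.

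The batch in the labels is what pairs libraries for the replicate block. Deviations from the group means correlated at a median of 0.240 over the 9 same-batch pairs (range -0.118 to 0.526, 6 over 0.1) and -0.103 over 18 other pairs. Named were the 10 genes, the cell type markers, up to 3 called genes per list and comparison with the largest log2 fold change, and the 2 genes most like each member. *Nrg3*, *Epgn*, *Adam17* and the list genes named for the mammosphere and Comma Dβ libraries fall outside this rule and were chosen after their values were seen. Alternatives were RLE factors, no scaling, limma 3.58.1 voom, DESeq2 1.42.0, other filters, the 9 sorted libraries alone, the block, another prior count and leaving out each replicate.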

Additional observations from a re-analysis of the deposited data

How the results depend on the processing

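With batch as a replicate block, 10, 9 and 6 of the 10 genes were called in the comparisons of MaSC/basal with LP, MaSC/basal with ML and LP with ML cells, against 10, 9 and 7 without it, and the gene lost was *Btc*. The block changed no other call of a member. Leaving out 1 replicate gave 9 to 10, 8 to 9 and 4 to 7 genes. The lowest count, 4, came without ML replicate 1, where *Btc*, *Erbb3* and *Erbb4* were not called between LP and ML cells, and the cause was not tested. Directions held under every alternative except for *Egf* between LP and ML cells, which is not called and had log2 fold changes of -0.00218 without ML replicate 2 and -0.22 without LP replicate 3 (range -0.22 to 0.59 over the left-out replicates). Over single genes, 17 alternatives ended a call and 2 made one. For the cultured libraries, 9 values moved by more than the SD of the MaSC/basal libraries, all without scaling factors. The 617 alternatives that counted as unchanged include values of the cultured libraries. These have no test, so that 617 is not a count of calls that held. The counts of genes past 2-fold were 6 to 7 in both cultured libraries. A filter of 2 CPM removed *Egf*, so that it has no value there. Without scaling factors the median log2 fold change of all genes was 0.14, -0.03 and -0.19 in the 3 comparisons.

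*Egf*, *Erbb4* and *Btc* rest on few reads in MaSC/basal cells, and with 3 libraries per population of which 1 per population is in batch 1, small differences between LP and ML cells depend on single libraries.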

Other observations

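The genes whose pattern over the 11 libraries was most like that of each member (Pearson r of log2 CPM, given as a description, since the libraries fall into groups and many genes share their pattern) were *Kif1a* (0.979) and *Mab21l4* (0.978) for *Tgfa*, *Bcat1* (0.989) and *Adcy7* (0.988) for *Ereg*, *Mcur1* (0.993) and *Dscam* (0.991) for *Areg*, *Naip2* (0.983) and *Tnip3* (0.979) for *Btc*, *Osgin1* (0.992) and *Dusp5* (0.982) for *Hbegf*, and *Fastkd1* (0.955) and *Eral1* (0.945) for *Egf*. Among the receptors they were *Nhsl1* (0.981) and *Ksr1* (0.979) for *Egfr*, *Ogfod2* and *Rab44* (0.988 each) for *Erbb2*, *Cmtm8* and *Slc45a3* (0.991 each) for *Erbb3*, and *Amtn* (0.986) and *Cxcl1* (0.980) for *Erbb4*. *Erbb3* had the most such company, with 585 genes over an r of 0.9, and *Egf* the least, with 12. *Dusp5*, which encodes an ERK phosphatase, was measured at 750, 336 and 526 CPM in LP, 188, 168 and 193 CPM in MaSC/basal and 155, 119 and 80.6 CPM in ML libraries. It was picked by its likeness to *Hbegf* in these libraries, so that a like order of populations is no separate result. Neither gene was called between MaSC/basal and ML cells in edgeR (adjusted p = 0.0937 for *Dusp5* and 0.193 for *Hbegf*).

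Within the family, the most alike pair was *Btc* and *Erbb2* (r = 0.964), ahead of *Erbb2* and *Erbb3* (r = 0.945), and the most opposed were *Tgfa* and *Egf* (r = -0.934) and *Ereg* and *Erbb3* (r = -0.904), each over the same 11 libraries.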
